A study of Mus musculus with 18 samples.

Results

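Gene expression was compared between 10 days and 2 days of treatment with MPTP in midbrain dopamine neurons captured by laser from 2 regions, the substantia nigra (SN) and its neighbour, the ventral tegmental area (VTA), with both regions in one model. All arrays of the study that carry either MPTP duration were used, 12 of 18 arrays: 6 arrays after 10 days (3 SN and 3 VTA) and 6 arrays after 2 days (3 SN and 3 VTA). The 6 saline arrays (3 SN and 3 VTA) did not enter the fit, and their values are given beside the others as a description. The question was which genes differed with the length of treatment in a way that SN and VTA neurons shared.

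All mice were adult C57Bl/6 animals of the hTH-GFP line, in which human tyrosine hydroxylase sequences drive a green fluorescent protein, and were singly housed for 9 weeks. The first group received MPTP at 4 mg/kg for 10 days, the second received MPTP at 4 mg/kg for 2 days, and the third received saline for 10 days. Tissue was taken 7 days after the last injection in every group. Sample descriptions call the third group untreated, whereas the treatment protocol gives it saline. The 10 day and 2 day groups are different mice that also differ in the number of injections, so length of treatment, number of injections and total dose cannot be told apart. Which mice gave which array is not stated in the labels. Where both regions of a mouse were used, the p-values over both regions are too small. The marking by which cells were chosen for capture and the number of cells per array are also not stated.

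MPTP is converted in the brain to a toxic ion that enters dopamine neurons through the dopamine transporter and inhibits complex I of the mitochondrial respiratory chain. Dopamine neurons of the SN are the ones most readily lost to it, and those of the VTA are more resistant. Cells under stress switch on partly separate programmes: heat shock factors raise cytosolic chaperones, and misfolded protein in the endoplasmic reticulum raises that compartment's own chaperones through the unfolded protein response. Circulating glucocorticoids raise a further set of genes, among them the clock genes Per1 and Per2.

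Each value is a log2 signal that had been centred on the median of its own probe set over all 18 arrays, so 0 is the middle of the study and not an absent transcript. No absolute level and no detection call are known, the presence of dopamine neuron transcripts could therefore not be checked by level, and precision is limited by the small number of arrays. The median absolute deviation of the centred values was 0.278 on array 1 of the 2 day VTA group and between 0.121 and 0.19 on the other MPTP arrays. In amplified RNA from captured tissue, fewer cells of a type and less RNA per cell cannot be told apart.

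Promoters of 4 genes that fell are shown first, because they hold or lack the element known from stress-induced genes. The sequences are RefSeq promoters of assembly GRCm38.p6, from 250 bases before to 50 bases after the gene's start, written 5′ to 3′ on the gene's strand. Capitals mark the endoplasmic reticulum stress element in Hspa5 and Creld2 (CCAAT, then 9 bases, then CCACG, on either strand) and the heat shock element core in Hspa1b (GAA, then 2 bases, then TTC). Hspa5, on the plus strand at chr2:34771840-34772139, encodes BiP, the main chaperone of the endoplasmic reticulum. Creld2, on the plus strand at chr15:88819396-88819695, encodes an endoplasmic reticulum protein induced by stress. Sdf2l1, on the minus strand at chr16:17132334-17132633, encodes a partner of BiP, and its window held no match. Hspa1b, on the minus strand at chr17:34959189-34959488, encodes the inducible cytosolic heat shock protein 70. The letters are as follows.
Hspa5: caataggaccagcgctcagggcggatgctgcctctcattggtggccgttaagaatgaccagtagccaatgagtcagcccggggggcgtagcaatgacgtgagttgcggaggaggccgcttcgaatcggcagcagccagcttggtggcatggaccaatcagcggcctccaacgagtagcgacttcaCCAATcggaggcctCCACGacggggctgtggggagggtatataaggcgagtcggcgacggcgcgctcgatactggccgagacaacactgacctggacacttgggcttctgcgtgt
Creld2: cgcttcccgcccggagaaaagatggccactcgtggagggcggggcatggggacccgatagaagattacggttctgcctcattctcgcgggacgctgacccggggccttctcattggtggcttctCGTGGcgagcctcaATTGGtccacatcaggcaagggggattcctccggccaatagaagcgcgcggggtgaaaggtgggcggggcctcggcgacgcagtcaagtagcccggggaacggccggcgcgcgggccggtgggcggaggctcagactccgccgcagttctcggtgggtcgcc
Sdf2l1: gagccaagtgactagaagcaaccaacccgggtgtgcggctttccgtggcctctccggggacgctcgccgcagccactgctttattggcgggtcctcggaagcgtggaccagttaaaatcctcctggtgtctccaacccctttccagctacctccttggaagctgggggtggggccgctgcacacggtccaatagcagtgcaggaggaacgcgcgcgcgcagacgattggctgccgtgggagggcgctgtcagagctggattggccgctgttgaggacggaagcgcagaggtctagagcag
Hspa1b: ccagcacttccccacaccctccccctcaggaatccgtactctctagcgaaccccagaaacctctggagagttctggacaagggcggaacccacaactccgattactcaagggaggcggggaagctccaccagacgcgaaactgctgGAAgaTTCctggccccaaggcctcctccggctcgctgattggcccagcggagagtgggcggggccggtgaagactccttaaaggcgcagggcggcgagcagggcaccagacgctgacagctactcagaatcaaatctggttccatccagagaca
The first base of the match lay 65 bases before the start in Hspa5, 126 in Creld2 and 104 in Hspa1b. The stress element occurred in 0.119% of 32851 RefSeq promoters and the heat shock core in 7.86%. A match describes these letters only.

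After 10 days of MPTP, compared with 2 days, the scaffold gene Cnksr3 was 5.27-fold higher and the class I histocompatibility gene H2-K1 2.71-fold higher in the 2 regions together. The heat shock gene Hspa1b was 2.54-fold lower, the clock gene Per2 2.07-fold lower and the glucocorticoid-induced genes Plin4 and Fmo2 2.92-fold and 2.07-fold lower. Sdf2l1, Creld2, Hspa5 and Manf, which belong to the unfolded protein response, fell by 0.51 to 0.99 on the log2 scale. Between 10 and 2 days of MPTP, limma called 42 of 18193 genes at an adjusted p under 0.05, which is 0.231%. Of these, 20 (0.11%) were higher and 22 (0.121%) were lower after 10 days. At an unadjusted p under 0.05, 875 genes (4.81%) were higher and 714 (3.92%) lower. The changes were moderate: absolute log2 differences of the called genes ran from 0.48 to 2.40 with a median of 0.91, and 16 passed 2-fold. In 39 of the 42 genes the 6 arrays of 10 days did not overlap with the 6 arrays of 2 days, beside 163 of all genes (0.896%); Gm10037, Gm15510 and Pla2g4e were the exceptions. Each of the 42 had the same sign in SN and in VTA, and each had an exact two-sided permutation p of 0.005, the smallest that 400 splits of duration within region can give. The same arrays chose these genes, so non-overlap, equal sign and small permutation p largely follow from that choice and add no separate support. If arrays of both regions came from the same mice, 20 splits remain and the smallest p is 0.1. Treating SN and VTA arrays of the same number as pairs, in a random block of the model, left 15 of the 42 calls.

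The calls rest on all arrays together. Leaving out any 1 of 10 arrays left 18 to 26 genes, fewest without array 2 of the 2 day SN group, then 19 without array 2 of the 2 day VTA group and 20 without array 3 of the 10 day SN group. Without array 1 of the 2 day SN group 40 genes were called, and without array 1 of the 2 day VTA group, the array of widest spread, 57. Under every alternative that held them, 13 genes were called: Cnksr3, Pisd-ps3, H2-K1, AA388235, Wdfy1, H2-D1, Plin4, 2410004I01Rik, Hspa1b, E4f1, Jmjd4, Per2 and Fmo2. The rest of the 42 lost the call under at least 1 alternative.

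The largest rise was in Cnksr3, a scaffold protein that in kidney cells is induced by aldosterone and supports sodium channel activity. Its centred log2 signal was lowest at -0.17, with a median of 0.37 and a highest value of 0.42, on the 10 day arrays, against -2.58, -2.34 and -1.21 on the 2 day arrays and -1.61, 0.30 and 1.18 on the saline arrays. Every 10 day array lay above every 2 day array, and the saline arrays ran across both. The difference was 2.40 ± 0.20 on the log2 scale (SE, 6 arrays per group), or 5.27-fold (adjusted p = 0.000207).

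Vnn1, which encodes the pantetheinase vanin 1, had values from -0.12 to 2.33 with a median of 1.23 on 10 day arrays, against -1.33 to -0.42 with a median of -1.05 on 2 day arrays. The groups did not overlap, but the 10 day arrays spread widely (SD 0.93), as did the saline arrays (SD 1.29). Its difference was 2.04 ± 0.36 (adjusted p = 0.0381), and it kept its call in 3 of the 12 fits that left out 1 array. Pisd-ps3, annotated as a pseudogene of phosphatidylserine decarboxylase, lay between 0.59 and 1.83 after 10 days and between -1.14 and -0.48 after 2 days. Its difference was 1.97 ± 0.20 (adjusted p = 0.000503), and all 5 of its probe sets were higher, by 1.06 to 2.90. Since the pseudogene resembles its parent gene, which of them gave the signal is uncertain.

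**Figure D1:**
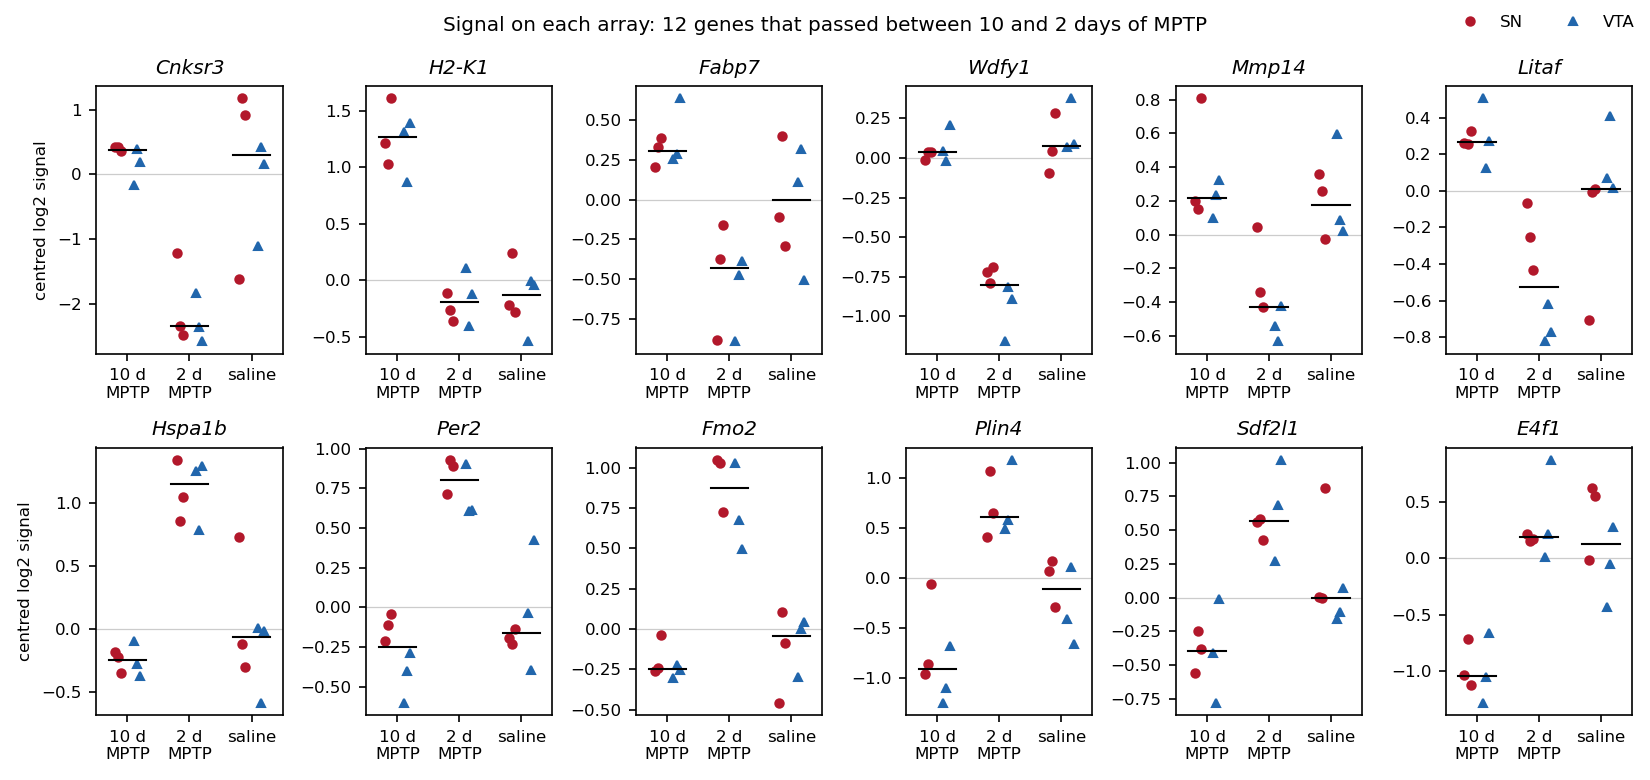
Centred log2 signal on each array for 12 genes that passed between 10 and 2 days of MPTP, with SN arrays as circles, VTA arrays as triangles and a bar at the median of 6 arrays. In each panel the 10 day arrays lie on the left, the 2 day arrays in the middle and the saline arrays on the right. The 10 and 2 day arrays do not overlap in any panel, while the saline arrays lie near the 10 day arrays for Wdfy1 and Fmo2 and near the 2 day arrays for H2-K1 and E4f1.

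Genes of the major histocompatibility complex (MHC), which present peptides to T cells, were among the rises. H2-K1, a classical class I heavy chain, lay between 0.87 and 1.61 with a median of 1.27 on 10 day arrays, against -0.41 to 0.11 with a median of -0.19 on 2 day arrays and -0.54 to 0.24 with a median of -0.13 on saline arrays. All 10 day arrays stood above both other groups, which overlapped each other. The difference was 1.44 ± 0.13, or 2.71-fold (adjusted p = 0.000315). H2-D1, the other classical class I heavy chain on the list, lay between 0.52 and 1.00 on 10 day arrays, against -0.22 to 0.12 on 2 day arrays and -0.16 to 0.25 on saline arrays. Again the 10 day arrays stood apart, and the difference was 0.79 ± 0.10 (adjusted p = 0.0045).

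The probe sets of these genes did not move alike. The 4 probe sets of H2-K1 ranged from 0.17 to 3.34 and the 9 of H2-D1 from -0.17 to 2.60. Class I genes are near-identical copies of each other, so which of them gave the signal is uncertain. H2-Q2, another class I gene, was at 0.89 ± 0.18 and the class I-like H2-M3 at 1.15 ± 0.30 (adjusted p = 0.0806 and 0.221). The class II genes H2-Eb1, H2-Ab1 and H2-Aa were at 1.04 ± 0.24, 0.79 ± 0.17 and 0.76 ± 0.20 (adjusted p = 0.146, 0.105 and 0.207), and B2m, the light chain of class I, at 0.37 ± 0.15 (adjusted p = 0.481). H2-Q2, H2-M3, H2-Eb1, H2-Ab1, H2-Aa and B2m were named after their values were seen.

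Over the whole list of 19 MHC and antigen processing genes, 15 were higher, 2 passed, both higher, and 9 were higher at an unadjusted p under 0.05, beside 0.11% and 4.81% of all genes. The median difference was 0.37, beside 0.004 over all genes. The median of the list per array lay between -0.021 and 0.53 after 10 days, between -0.22 and -0.025 after 2 days and between -0.04 and 0.25 with saline. The MPTP groups did not overlap in this median, by a small margin, and the saline arrays overlapped both.

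H2-K1 has as its immediate neighbour in RefSeq's gene order AA388235, a transcript named by an expressed sequence and singled out after its values were seen. AA388235 was between 0.84 and 1.68 on 10 day arrays, against -0.32 to 0.22 on 2 day arrays and -0.25 to 0.00 on saline arrays. It differed by 1.42 ± 0.16 (adjusted p = 0.00102), with the 10 day arrays above both other groups. Of the 42 called genes, 7 lie on chromosome 17 (AA388235, H2-K1, H2-D1, Hspa1b, Plin4, E4f1 and Gm5817), which is 16.7% beside 4.61% of all genes. From AA388235 to H2-D1 in gene order there are 75 measured genes, of which 4 were called and 15 had an unadjusted p under 0.05, 10 of them higher and 5 lower, beside 0.231% and 8.73% of all genes. Both ends of this interval are called genes and were chosen as its ends after their values were seen, so their calls are built into its counts. E4f1, on the same chromosome, went the other way: it lay between -1.28 and -0.66 on 10 day arrays, against 0.01 to 0.87 on 2 day arrays and -0.44 to 0.62 on saline arrays, and fell by 1.25 ± 0.15 (adjusted p = 0.00282). E4f1 encodes a zinc finger protein that binds p53. For AA388235 and E4f1 the 10 day arrays stood apart and the 2 day and saline arrays overlapped.

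Wdfy1, which encodes an endosomal protein that binds phosphatidylinositol 3-phosphate, showed the opposite arrangement, with the 2 day arrays apart. It lay between -0.02 and 0.21 on 10 day arrays, against -1.16 to -0.69 on 2 day arrays and -0.10 to 0.38 on saline arrays. The difference was 0.89 ± 0.09 (adjusted p = 0.000586), and its 5 probe sets ranged from -0.01 to 1.64. Litaf, an endosomal and lysosomal membrane protein gene mutated in a form of Charcot-Marie-Tooth disease, rose by 0.79 ± 0.12 (adjusted p = 0.0147), with 0.13 to 0.51 on 10 day arrays and -0.82 to -0.07 on 2 day arrays. Its saline arrays lay between -0.71 and 0.41 and overlapped both MPTP groups. With SN and VTA arrays of the same number paired in a random block, the adjusted p of Litaf was 0.069.

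The other rises were in single genes of different roles. Fabp7, the brain fatty acid binding protein known from radial glia and astrocytes, lay between 0.20 and 0.64 on 10 day arrays, against -0.89 to -0.16 on 2 day arrays and -0.50 to 0.40 on saline arrays. The MPTP groups did not overlap, and the difference was 0.88 ± 0.14 (adjusted p = 0.0207). Mmp14, a membrane-bound metalloproteinase gene, was at 0.69 ± 0.13 and Bdh2, a cytosolic dehydrogenase gene, at 0.79 ± 0.15 (adjusted p = 0.0477 for each). Fbxw17, an F-box protein gene, rose by 1.08 ± 0.19 (adjusted p = 0.044), and Trim36, a ubiquitin ligase gene, by 0.59 ± 0.10 (adjusted p = 0.0252). Outside the naming rule and named after their values were seen, Elovl7, a fatty acid elongase gene, rose by 0.48 ± 0.09 (adjusted p = 0.0477) and Myct1 by 0.52 ± 0.09 (adjusted p = 0.0349). Each of these 7 genes lost its call when some single arrays were left out. Of the 12 fits that left out 1 array, Fabp7 kept its call in 8 and Trim36 in 4. Bdh2 and Myct1 kept it in 2 each, and Mmp14, Fbxw17 and Elovl7 in 1 each.

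Among the falls, Hspa1b had the smallest adjusted p. Its values were -0.37 at the lowest, -0.25 at the median and -0.10 at the highest on 10 day arrays, against 0.78, 1.15 and 1.34 on 2 day arrays and -0.58, -0.07 and 0.73 on saline arrays. The 10 day arrays were tightly grouped (SD 0.10), all 2 day arrays lay above every 10 day and every saline array, and 1 SN saline array stood well above the other saline arrays. The fall was 1.35 ± 0.11 on the log2 scale (adjusted p = 0.000207), and its 3 probe sets ranged from -1.56 to -1.05. Hspa1a, a near-identical copy of the gene, was at -0.48 ± 0.24 (adjusted p = 0.607), and which of the copies gave the signal is uncertain. Hspa1a was named after its values were seen. Of 24 heat shock chaperone genes, 18 were lower with a median of -0.09, 1 passed and 5 were lower at an unadjusted p under 0.05, beside 0.121% and 3.92% of all genes. The co-chaperone gene Dnajb1 was at -0.46 ± 0.10 (adjusted p = 0.129). The list's median per array lay between -0.10 and -0.02 after 10 days, between 0.04 and 0.09 after 2 days and between -0.03 and 0.07 with saline. The MPTP groups did not overlap in it. Of 19 genes of the list with a RefSeq promoter, 11 held the heat shock core, beside 7.6% of measured genes with a promoter, 9 of them lower with a median of -0.11, and 8 did not, 5 of them lower with a median of -0.07.

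Of the unfolded protein response genes, 4 passed, and all 4 fell. Sdf2l1 lay between -0.78 and -0.01 with a median of -0.40 on 10 day arrays, against 0.27 to 1.02 with a median of 0.57 on 2 day arrays and -0.16 to 0.81 with a median of 0.00 on saline arrays. Creld2 lay between -0.62 and -0.10 on 10 day arrays, against 0.07 to 0.41 on 2 day arrays and -0.49 to 0.09 on saline arrays. In both genes the MPTP groups did not overlap and the saline arrays overlapped with them. Sdf2l1 fell by 0.99 ± 0.15 (adjusted p = 0.0147) and Creld2 by 0.62 ± 0.10 (adjusted p = 0.0265).

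Manf, which encodes a protein of the endoplasmic reticulum with neurotrophic action on dopamine neurons, lay between -0.41 and -0.07 on 10 day arrays, against 0.03 to 0.44 on 2 day arrays and -0.18 to 0.27 on saline arrays. It fell by 0.54 ± 0.10 (adjusted p = 0.0477). Hspa5, outside the naming rule, lay between -0.36 and -0.16 on 10 day arrays, against 0.00 to 0.43 on 2 day arrays and -0.06 to 0.18 on saline arrays. It fell by 0.51 ± 0.09 (adjusted p = 0.0381), its 10 day arrays lay below all other arrays, and its 3 probe sets ranged from -0.58 to -0.47. Of these 4 genes, Sdf2l1 alone kept its call whichever single array was left out. None of the 4 passed when SN and VTA arrays of the same number were paired in a random block. The adjusted p was then 0.0593 for Sdf2l1, 0.0995 for Creld2, 0.0995 for Hspa5 and 0.135 for Manf.

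Of 30 genes of the unfolded protein response, 24 were lower. In the fit that did not pair the arrays 4 passed, all lower, beside 0.121% of all genes. At an unadjusted p under 0.05, 10 were lower and 0 higher, beside 3.92% lower of all genes. The median was -0.10 over both regions, -0.15 in SN and -0.12 in VTA. Named after their values were seen, the transcription factor gene Xbp1, whose messenger RNA is spliced on stress, was at -0.52 ± 0.11 and Herpud1, a gene of protein removal from the endoplasmic reticulum, at -0.38 ± 0.11 (adjusted p = 0.116 and 0.254). The list's median per array was between -0.16 and -0.03 after 10 days, between 0.01 and 0.08 after 2 days and between -0.01 and 0.10 with saline. The 10 day arrays lay below all others in this median, and the 2 day and saline arrays overlapped. Of 26 genes of the list with a RefSeq promoter, 9 held the stress element, beside 0.138% of 14452 measured genes with a promoter. All 9 (Hspa5, Hsp90b1, Pdia6, Calr, Canx, Dnajc3, Creld2, Syvn1 and Derl3) were lower, with a median of -0.10. Of the 17 without a match 11 were lower, with a median of -0.07. No promoter entry was found for Manf, so it is in neither count.

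**Figure D2:**
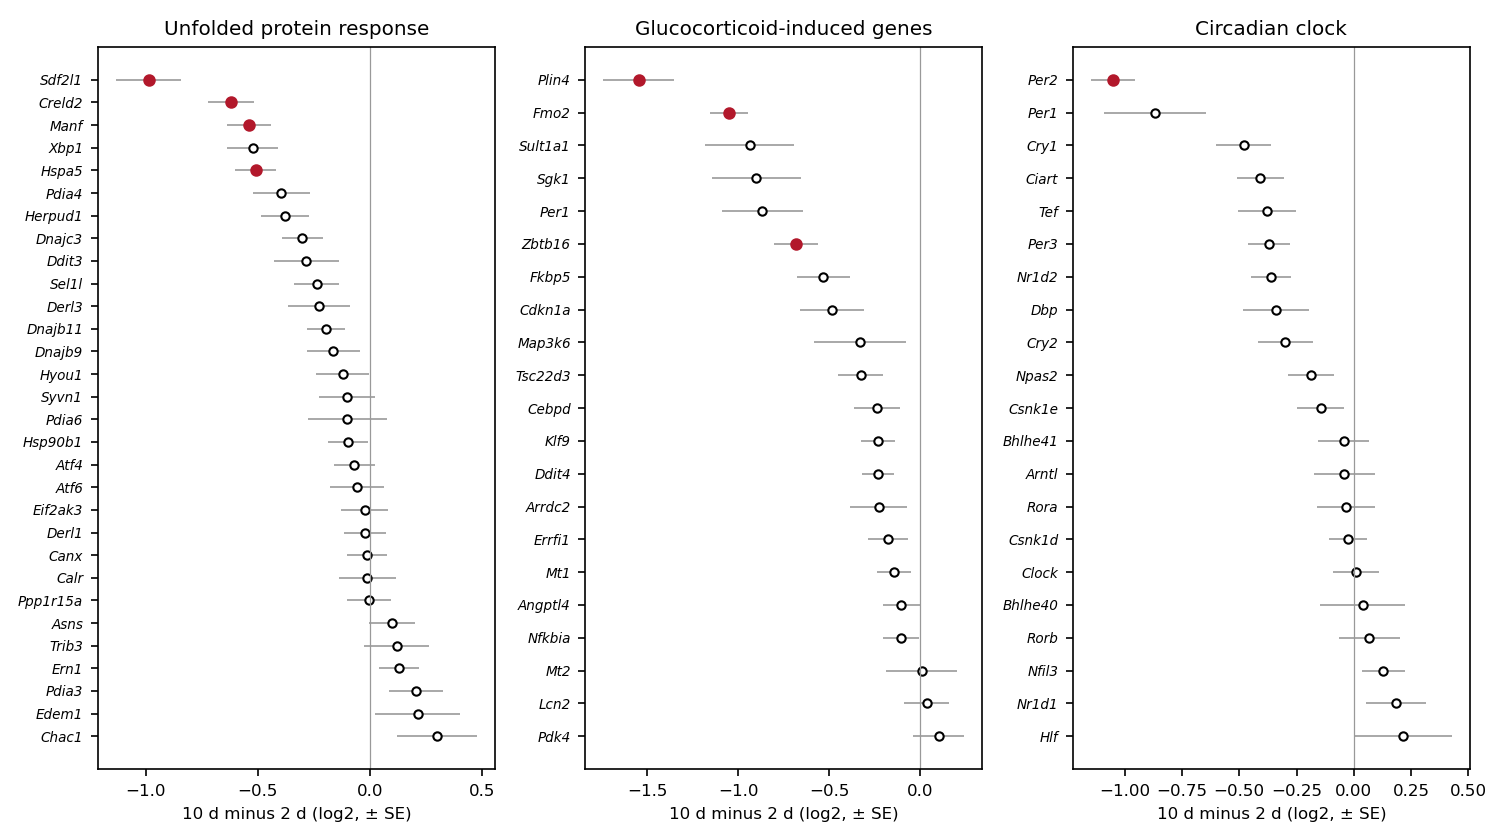
Difference between 10 and 2 days of MPTP over both regions (log2, with its SE from the model) for every measured gene of 3 lists, with filled points for genes at an adjusted p under 0.05. Most points lie left of 0: 24 of 30 in the unfolded protein response, 18 of 21 among glucocorticoid-induced genes and 15 of 21 in the circadian clock.

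Of the 36 lists, glucocorticoid-induced genes had the largest share of members lower at an unadjusted p under 0.05. The lists were chosen with earlier results of these data known, so this rank and the list's counts are a description and no test. Plin4, a lipid droplet coat protein gene, lay between -1.25 and -0.07 with a median of -0.91 on 10 day arrays, against 0.40 to 1.18 with a median of 0.61 on 2 day arrays and -0.67 to 0.17 with a median of -0.11 on saline arrays. The 2 day arrays lay above all others. Plin4 fell by 1.55 ± 0.19, or 2.92-fold (adjusted p = 0.00325). Fmo2, a flavin-containing monooxygenase gene, lay between -0.30 and -0.04 on 10 day arrays, against 0.49 to 1.05 on 2 day arrays and -0.46 to 0.11 on saline arrays. It fell by 1.05 ± 0.11 (adjusted p = 0.000514), the 2 day arrays again lay above all others, and its 5 probe sets ranged from -2.21 to 0.04. Zbtb16, a zinc finger repressor gene named after its values were seen, fell by 0.68 ± 0.12 (adjusted p = 0.046), and kept its call in 1 of the 12 fits that left out 1 array.

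Of 21 genes of that list, 18 were lower, 3 passed and 11 were lower at an unadjusted p under 0.05, with 0 higher, beside 0.121% and 3.92% lower of all genes. The median was -0.24, with -0.26 in SN and -0.34 in VTA. Further members, named after their values were seen, were the kinase gene Sgk1 at -0.90 ± 0.24 and the receptor co-chaperone gene Fkbp5 at -0.53 ± 0.14 (adjusted p = 0.227 and 0.229). The list's median per array lay between -0.32 and -0.05 after 10 days, between -0.01 and 0.22 after 2 days and between 0.00 and 0.15 with saline. The 10 day arrays lay below all others.

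Per2, a repressor of the circadian clock, lay between -0.60 and -0.04 with a median of -0.25 on 10 day arrays, against 0.61 to 0.93 with a median of 0.80 on 2 day arrays and -0.40 to 0.43 with a median of -0.16 on saline arrays. The 2 day arrays lay above all others. Per2 fell by 1.05 ± 0.10, or 2.07-fold (adjusted p = 0.000282), and its 3 probe sets ranged from -1.55 to -0.45. Its relatives Per1 and Per3, named after their values were seen, were at -0.87 ± 0.22 and -0.37 ± 0.09 (adjusted p = 0.207 and 0.184). Nr1d2, a clock repressor of the nuclear receptor family, was at -0.36 ± 0.09 and Ciart, another clock repressor, at -0.41 ± 0.10 (adjusted p = 0.162 and 0.18). Ciart was named after its values were seen. Per1 is on the glucocorticoid list too. Of 21 clock genes, 15 were lower, 1 passed and 9 were lower at an unadjusted p under 0.05, beside 0.121% and 3.92% of all genes. The median was -0.14, which was -0.10 without array 1 of the 2 day VTA group. The list's median per array was between -0.15 and 0.00 after 10 days and between 0.04 and 0.15 after 2 days, without overlap, and between -0.33 and 0.06 with saline. The E-box CACGTG, the same letters on both strands, occurred in the promoters of 5 of 18 clock genes, beside 10.2% of 14452 measured genes with a promoter. All 5 (Per1, Cry1, Tef, Ciart and Bhlhe41) were lower, with a median of -0.41. Of the 13 without it 8 were lower, with a median of -0.04. No promoter entry was found for Per2, the clock gene that passed, so it is in neither count. The sources used here do not state the time of day at which tissue was taken.

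Further falls had no shared list. Jmjd4, a hydroxylase gene, lay between -0.93 and -0.58 on 10 day arrays, against -0.17 to 0.65 on 2 day arrays and -0.14 to 0.83 on saline arrays. It fell by 1.07 ± 0.13 (adjusted p = 0.00325), with the 10 day arrays below all others. Smco3 fell by 1.13 ± 0.18 (adjusted p = 0.0249), the phospholipase gene Pla2g4e by 0.99 ± 0.16 (adjusted p = 0.023) and the cadherin gene Cdh19 by 0.96 ± 0.17 (adjusted p = 0.0371). Of the 12 fits that left out 1 array, Smco3 kept its call in 6, Pla2g4e in 5 and Cdh19 in 2. Bloc1s6, a subunit of the complex that forms lysosome-related organelles, fell by 0.85 ± 0.13 (adjusted p = 0.0147), but its 3 probe sets ranged from -2.44 to 0.01. Fam199x fell by 0.76 ± 0.13 (adjusted p = 0.0369), with 3 probe sets from -2.32 to 0.06. In those 12 fits Bloc1s6 kept its call in 11 and Fam199x in 3. In both genes 1 probe set carried the fall and the other two were near 0. Of the 42 called genes, 21 had several probe sets, 15 of them with all probe sets of one sign, and 5 had probe sets that differed by over 2 on the log2 scale. A further 9 called genes carry symbols of clones or predicted genes, the largest difference among them being -1.72 ± 0.18 in 2410004I01Rik (adjusted p = 0.000549).

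The mean of the saline arrays lay nearer to the 10 day mean in 27 of the 42 genes (13 of the 20 higher, 14 of the 22 lower) and nearer to the 2 day mean in 15 (7 higher, 8 lower). Cnksr3, Hspa1b, Per2, Fmo2 and Wdfy1 belonged to the first kind, and H2-K1, AA388235, E4f1 and H2-D1 to the second. These counts describe where the saline arrays lay and are no test against saline.

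The duration difference was then examined in each region. Tested within each region on 3 against 3 arrays, 8 genes passed in SN (0.044%) and 8 in VTA (0.044%). Cnksr3, Pisd-ps3, H2-K1, Hspa1b and Per2 passed in both. AA388235, Fmo2 and 2410004I01Rik passed in SN, and Wdfy1, Litaf and Fbxw17 in VTA. All these genes also passed over both regions, and each had an unadjusted p under 0.05 in the region where it did not pass. Without some single arrays 0 genes passed within a region. In SN this held for arrays 2 and 3 of 2 days and arrays 1 and 2 of 10 days, and 1 gene passed without array 1 of 2 days or array 3 of 10 days. In VTA it held for array 1 of 2 days and each array of 10 days.

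Of 712 genes at an unadjusted p under 0.05 in SN (3.91%), 76.7% had the same sign in VTA, and of 1369 such genes in VTA (7.52%), 75.1% had the same sign in SN. Over all genes the share was 57.6%. The 2 differences correlated with r = 0.344 across genes, which are not independent replicates, and SN and VTA arrays may share mice.

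**Figure D3:**
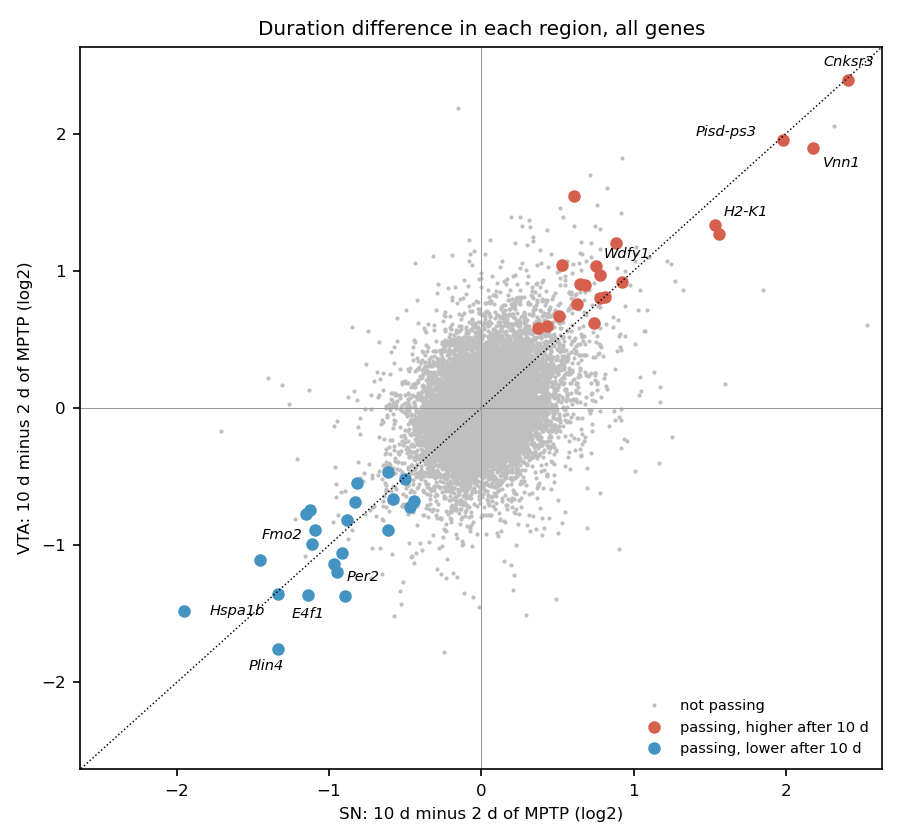
Difference between 10 and 2 days of MPTP in SN (x axis) and in VTA (y axis), both in log2, for all 18193 genes, with the 42 called genes in colour and the line of equal difference dotted. All coloured points lie in the upper right or lower left quadrant, near the line for Cnksr3, Pisd-ps3 and Hspa1b.

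The test of the difference itself, the interaction of region and duration, called no gene, 0.0% of 18193, and 448 (2.46%) had an unadjusted p under 0.05. Among the called genes only Fbxw17 and Litaf had an unadjusted interaction p under 0.05. Fbxw17 was at 1.55 in VTA and 0.61 in SN, and Litaf at 1.04 in VTA and 0.53 in SN, each higher in both regions. Their interaction terms were 0.94 ± 0.30 and 0.51 ± 0.20, with an adjusted p of 0.99988 for each. Of genes with the smallest interaction p, the methyltransferase gene Vcpkmt was at -0.51 in VTA and 0.36 in SN, and the complement gene C1ra at 0.48 in VTA and -0.67 in SN, neither passing. A p that misses the threshold does not show that the regions acted alike.

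The genes that define dopamine neurons were higher after 10 than after 2 days in 22 of 23 cases, and none passed. Th, the rate-limiting enzyme of dopamine synthesis, lay between -0.55 and 1.07 on 10 day arrays, against -0.87 to 0.46 on 2 day arrays and -0.90 to 1.45 on saline arrays. The 10 and 2 day arrays overlapped widely. Of the saline arrays, array 1 of the VTA group lay below every 2 day array and the others lay above them all. The difference between 10 and 2 days was 0.55 ± 0.29 (adjusted p = 0.648, exact permutation p = 0.15). The dopamine transporter gene Slc6a3 was at 0.46 ± 0.19, the vesicular transporter gene Slc18a2 at 0.50 ± 0.25 and the decarboxylase gene Ddc at 0.45 ± 0.16, with adjusted p of 0.525, 0.615 and 0.408. The nicotinic receptor gene Chrna6 was at 1.07 ± 0.29 and the guanylate cyclase gene Gucy2c at 0.90 ± 0.25 (adjusted p = 0.229 and 0.24). The list's median difference was 0.46, and 10 genes had an unadjusted p under 0.05, all higher, beside 4.81% of all genes. Its median per array lay between -0.32 and 0.71 after 10 days, between -0.99 and 0.12 after 2 days and between -0.77 and 1.00 with saline. The 3 groups overlapped, and each MPTP group ranged more widely than the list's median difference. The middle value over arrays was -0.13 after 10 days, -0.39 after 2 days and 0.62 with saline. Array 1 of the saline VTA group was at -0.77, and the other saline arrays lay above every 2 day array.

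**Figure D4:**
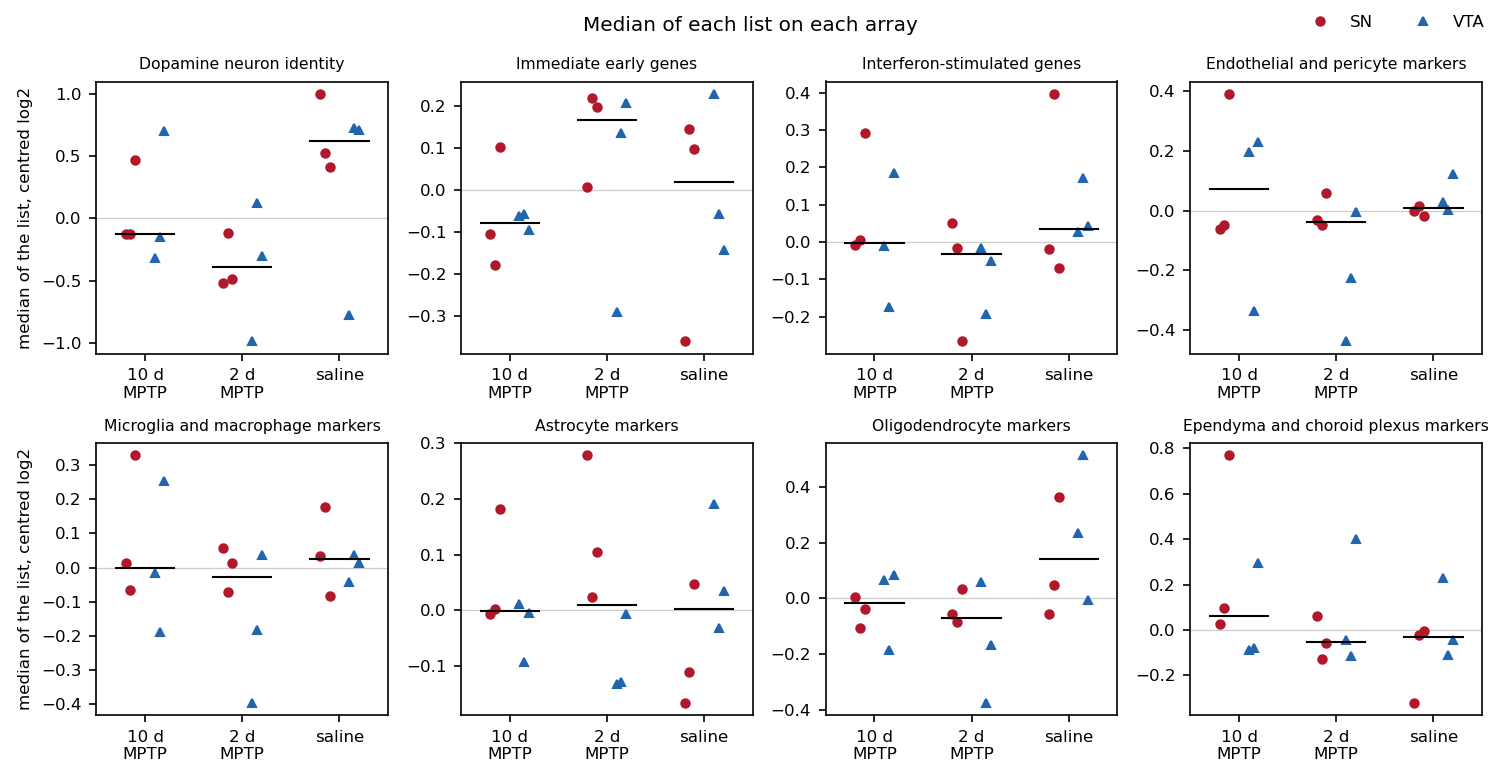
Median over the members of 8 gene lists on each array (centred log2), with SN arrays as circles, VTA arrays as triangles and a bar at the median of 6 arrays. Dopamine neuron identity genes overlap between 10 days of MPTP, 2 days of MPTP and saline, as do immediate early, interferon-stimulated, endothelial, microglial, astrocyte, oligodendrocyte and ependymal genes.

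Genes enriched in SN dopamine neurons were higher in 12 of 16 cases with a median of 0.09, and genes enriched in VTA dopamine neurons in 12 of 22 cases with a median of 0.02. The median of the SN-enriched genes ran from 0.02 to 0.15 when 1 array was left out. Neither list held a gene that passed.

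Immediate early genes, which neurons induce with activity, were lower in 21 of 25 cases with a median of -0.17. None passed, and 5 were lower at an unadjusted p under 0.05, beside 3.92% of all genes. Nr4a1 was at -0.52 ± 0.18 and Npas4 at -0.58 ± 0.22 (adjusted p = 0.379 and 0.456). The list's median per array overlapped, with -0.18 to 0.10 after 10 days, -0.29 to 0.22 after 2 days and -0.36 to 0.23 with saline. Without array 1 of the 2 day VTA group, which held the -0.29, the median difference was -0.27.

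Markers of other cell types that a captured section can hold were examined beside these results, and none of the listed genes passed. Fabp7, known from radial glia and astrocytes, passed but was not on the astrocyte list. Endothelial and pericyte genes were higher in 16 of 20 cases with a median of 0.25, which was 0.16 without array 3 of the 10 day SN group. Microglial and macrophage genes were higher in 15 of 21 cases with a median of 0.10, which reached 0.18 without array 2 of the 10 day VTA group. Astrocyte genes were higher in 8 of 18 cases with a median of -0.01, oligodendrocyte genes in 11 of 16 with 0.03 and oligodendrocyte precursor genes in 6 of 10 with 0.08. At an unadjusted p under 0.05, 5 endothelial genes were higher and 1 lower, and 4 microglial genes were higher and 1 lower. Of oligodendrocyte genes 3 were higher and 0 lower, of precursor genes 2 and 1, and of astrocyte genes 1 and 1. Over all genes the shares were 4.81% higher and 3.92% lower. Within these lists Slc2a1, the glucose transporter of the blood-brain barrier, was at -0.39 ± 0.10 and Cldn5, a tight junction gene of endothelium, at 0.40 ± 0.14. The astrocyte gene Gfap was at 0.72 ± 0.32, and the microglial genes Ptprc and Fcrls were at 0.43 ± 0.15 and -0.62 ± 0.15.

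The median per array of the endothelial list lay between -0.33 and 0.39 after 10 days, between -0.44 and 0.06 after 2 days and between -0.02 and 0.12 with saline. That of the microglial list lay between -0.19 and 0.33 after 10 days, between -0.39 and 0.06 after 2 days and between -0.08 and 0.18 with saline. That of the astrocyte list lay between -0.09 and 0.18 after 10 days, between -0.13 and 0.28 after 2 days and between -0.17 and 0.19 with saline. All 3 lists overlapped between the MPTP groups. Since no levels are known, whether these markers were present at all could not be told, and their part in the rises of Fabp7, Mmp14 and the MHC genes was not tested.

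Ependymal and choroid plexus genes were higher in 12 of 18 cases with a median of 0.32, which was 0.17 without array 3 of the 10 day SN group. Ttr, the main secreted protein of the choroid plexus, ran from -0.85 to 6.09 on 10 day arrays and from -2.87 to 5.33 on 2 day arrays, so single arrays of either group held far more of it than the others. It was named after its values were seen. GABA neuron markers were higher in 5 of 12 cases with a median of -0.07, markers of other neurons in 5 of 15 with -0.06 and erythrocyte genes in 3 of 5 with 0.02. The median difference of the erythrocyte genes ran from -0.12 to 0.12 with 1 array left out.

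**Figure D5:**
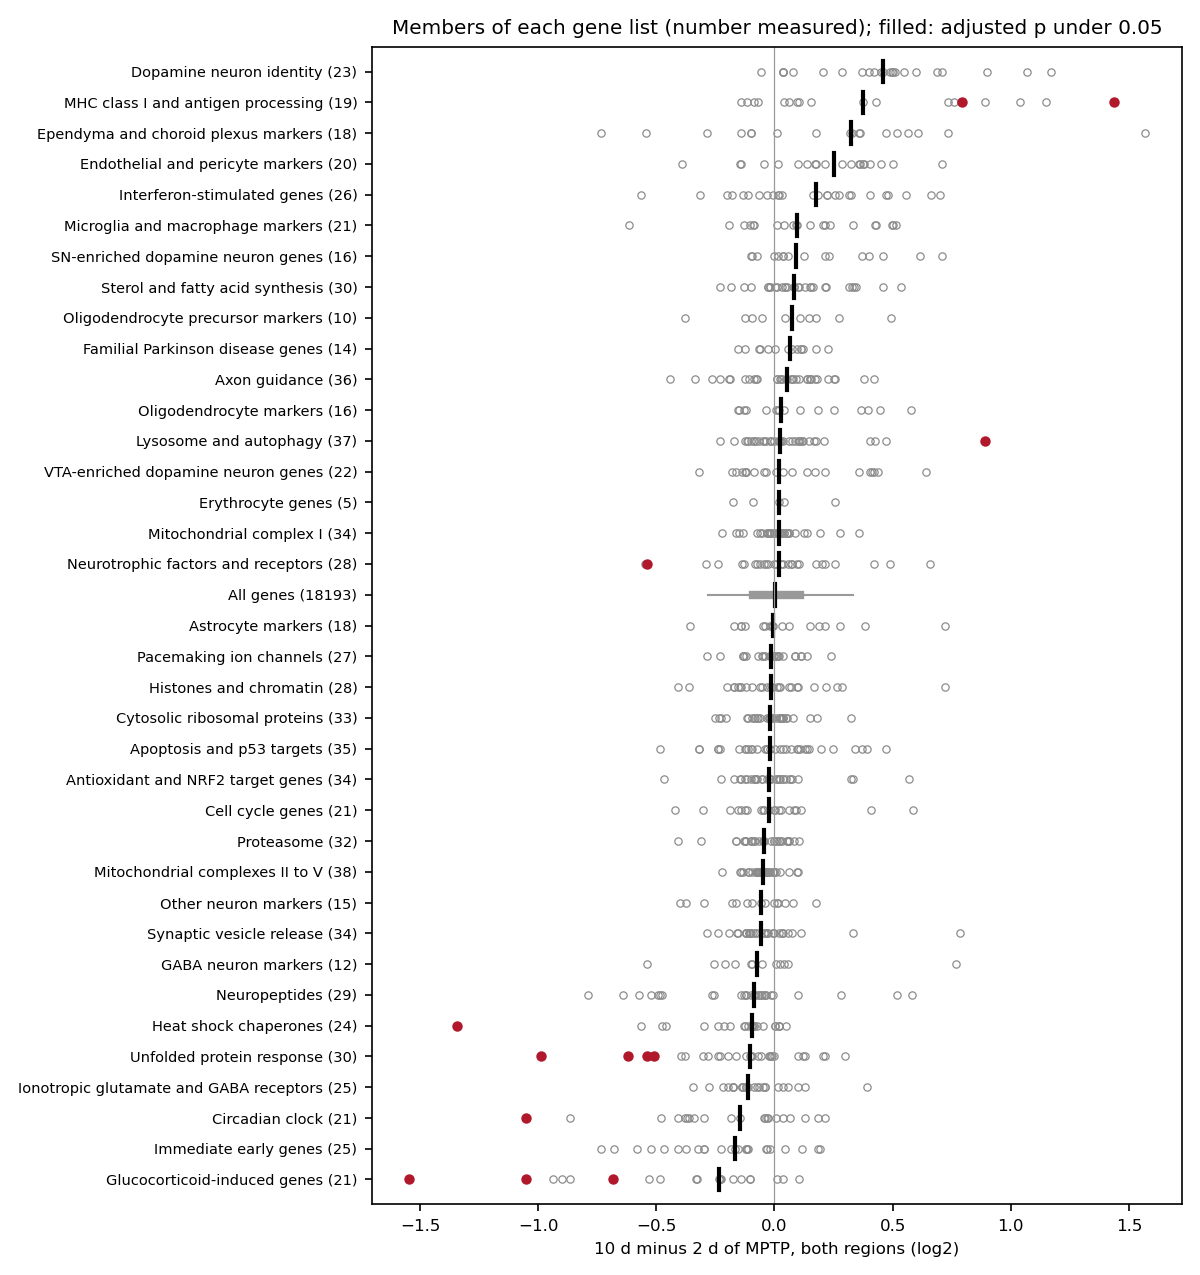
Difference between 10 and 2 days of MPTP over both regions (log2) for every member of 36 gene lists, one list per line with the number measured, ordered by its median (black bar), with filled points at an adjusted p under 0.05. For all 18193 genes the thick line joins the quartiles and the thin line reaches into the tails. Dopamine neuron identity (0.46) and MHC genes (0.37) lie at the top, and glucocorticoid-induced genes (-0.24) at the bottom.

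Interferon-stimulated genes were higher in 17 of 26 cases with a median of 0.18, which was 0.09 without array 2 of the 2 day VTA group. None passed. At an unadjusted p under 0.05, 6 were higher and 1 was lower, beside 4.81% and 3.92% of all genes. Oasl2 was at 0.70 ± 0.19 and Irf9, part of the factor that drives such genes, at -0.57 ± 0.16 (adjusted p = 0.241 for each). Genes of sterol and fatty acid synthesis were higher in 22 of 30 cases with a median of 0.08, and Hsd17b7, an enzyme of cholesterol synthesis, was at 0.54 ± 0.12 (adjusted p = 0.137).

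Genes of the mitochondrial target of MPTP differed little. Complex I subunit genes were higher in 20 of 34 cases with a median of 0.02, and 0 had an unadjusted p under 0.05. Subunit genes of complexes II to V were lower in 33 of 38 cases, but by a median of only -0.05, with 0 at an unadjusted p under 0.05; that median was -0.01 in SN and -0.08 in VTA. Antioxidant and NRF2 target genes were lower in 19 of 34 cases with a median of -0.02, and the thioredoxin reductase gene Txnrd1 was at -0.47 ± 0.10 (adjusted p = 0.118). Apoptosis genes and p53 targets were lower in 18 of 35 cases with a median of -0.02, and familial Parkinson disease genes were higher in 9 of 14 with 0.07. None of these genes passed. With 1 array left out the median ran from -0.07 to -0.03 for complexes II to V and from 0.008 to 0.087 for the familial Parkinson disease genes.

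Neuronal function genes also held no call. Synaptic vesicle genes were lower in 25 of 34 cases with a median of -0.06, ionotropic glutamate and GABA receptor genes in 19 of 25 with -0.11, neuropeptide genes in 25 of 29 with -0.08 and pacemaking ion channel genes in 16 of 27 with -0.01. Without array 1 of the 2 day VTA group the neuropeptide median was -0.18, and without array 3 of the 10 day VTA group the receptor median was -0.04. Sv2c, a synaptic vesicle protein gene, was at 0.78 ± 0.27 and the AMPA receptor subunit gene Gria3 at -0.34 ± 0.11 (adjusted p = 0.388 and 0.346). Axon guidance genes were higher in 25 of 36 cases with a median of 0.05. With 1 array left out the median ran from 0.02 to 0.08 for axon guidance and from -0.09 to -0.03 for synaptic vesicle genes.

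In the remaining lists the calls were single genes already described. Neurotrophic factor and receptor genes were higher in 15 of 28 cases with a median of 0.02, and Manf was the 1 that passed. Lysosome and autophagy genes were higher in 21 of 37 cases with a median of 0.02, and Wdfy1 was the 1 that passed. Proteasome genes were lower in 21 of 32 cases with a median of -0.05, which ran from -0.07 to -0.02 with 1 array left out, and cytosolic ribosomal protein genes in 19 of 33 with -0.02. Cell cycle genes were lower in 12 of 21 cases with a median of -0.02, and histone and chromatin genes in 16 of 28 with -0.02. In the last list the linker histone gene H1f2 was at 0.72 ± 0.14 (adjusted p = 0.057).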

How the data were processed

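Groups were taken from the sample titles. The authors deposited log2 values of 45101 probe sets for 18 Affymetrix mouse arrays. They came from RMA normalisation in GeneSpring GX 10.0, per the series' design text; the submitters' processing notes name RMA too. No source used here gives a background correction or a filter. RNA was amplified from captured cells with the WT-Ovation Pico system, per the labels' protocols, which may widen the spread of scarce transcripts. Checked over the 18 arrays, every probe set had a median within 5e-07 of 0, so neither levels nor a filter on dim probe sets could be had. Values ran from -5.02 to 6.72, 0 were missing and 0 arrays were identical.

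The platform annotation table, which can be old, named 34945 probe sets with 1 symbol and 932 with several, and left 9160 unnamed, beside 64 control probe sets. A gene was the mean of its probe sets with 1 symbol, which gave 18193 genes, 9010 of them with several probe sets. Of these symbols, 99.74% were in a RefSeq table of GRCm38.p6, used for names, gene order and promoters.

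Duration was tested by lmFit and eBayes of limma 3.58.1, under R 4.3.3, on 12 arrays with region as a covariate, with 9 residual and 4.22 prior degrees of freedom, and p-values were two-sided and adjusted by Benjamini-Hochberg over all genes at 0.05. Fits of 4 group means and of the interaction gave the values by region, and single genes were also permuted exactly within region. The procedure was tested on simulated data of 12 arrays drawn independently of each other. Of genes changed by 0.5 on the log2 scale it recovered 38.7%, of those changed by 1 88.6% and by 1.5 98.5%. It made 14 false calls, and small differences were often missed. Replicates are biological per the labels, and what else they share is not stated.

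The comparison and the 36 gene lists, with 846 measured genes and 104 entries that matched none, were chosen with earlier results of these data known. Lists are described by counts and medians without a test. Named genes were, of those that passed, the 12 that rose and the 12 that fell by most, up to 2 members of each list in each direction at an unadjusted p under 0.05, Th, Slc6a3, Slc18a2 and Ddc, and 5 genes of each sign for the interaction, without symbols of clones or predicted genes. Alternatives were single probe sets, other fits, scalings and weights, a replicate block, a filter on the spread of saline arrays and omission of each array. Tables were made with pandas 2.3.3 in Python 3.11.15 and figures with matplotlib 3.10.9.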

Additional observations from a re-analysis of the deposited data

Results flagged for a closer look

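In 84 groups of 6 arrays (each called gene in each MPTP group), the highest or lowest array was compared with its nearest neighbour by Dixon's ratio at its usual critical value, which chance passes in about 1 in 20 groups. In 7 groups an array stood apart. On 10 day arrays, Fmo2 was at -0.0354 on SN array 3, with the next array at -0.22. Mmp14 was at 0.809 on the same SN array 3, with the next at 0.326, and Wdfy1 was at 0.207 on VTA array 3, with the next at 0.0411. On 2 day arrays, AA388235 was at 0.222 on VTA array 1, with the next at -0.138, and Otub2 was at 0.689 on the same array, with the next at 0.282. E4f1 was at 0.874 on VTA array 3, with the next at 0.213, and Bdh2 was at -0.747 on SN array 2, with the next at -0.394. Fmo2, Wdfy1, AA388235 and E4f1 kept their call whichever array was left out, while Mmp14, Otub2 and Bdh2 did not.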

How the results depend on the processing

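Over both regions 42 genes passed. With all 18 arrays and 6 group means 23 passed, 20 of them among the 42, and with array weights 104 passed, all 42 among them. With 1 array left out 18 to 57 passed. Within SN 8 genes passed, against 3 with all 18 arrays, 15 with array weights and 0 to 9 with 1 array left out. Within VTA 8 passed, against 14 with array weights and 0 to 10 with 1 array left out. The interaction gave 0 genes except without array 3 of the 2 day VTA group, which gave 1. SN and VTA arrays of the same number deviated together. Their correlations were 0.324, 0.281 and 0.399 after 10 days and 0.221, 0.231 and 0.05 after 2 days. Arrays of the same duration but different numbers had correlations from -0.286 to 0.137. The last same-number value was under 0.1 and the labels name no mice, so the fit over both regions did not pair the arrays. These correlations do not exclude shared mice, with which the p-values of that fit are too small. With a random replicate block of SN and VTA arrays (correlation 0.222) 15 genes passed over both regions, all among the 42; Sdf2l1, Creld2, Hspa5 and Manf were not among them (adjusted p = 0.0593, 0.0995, 0.0995 and 0.135). As a hint from the data, SN array 3 of 2 days correlated best with VTA array 2, and each of the other SN arrays with the VTA array of its own number. With the number as a fixed replicate block 50 passed over both regions and 5 within SN. Leaving out arrays or pooling the spread with saline arrays changes the degrees of freedom; the cause of the other shifts was not tested. Other settings gave 30 to 52 genes over both regions. Of 2406 values of 105 named genes over 23 settings, 320 lost a call, 11 gained one and 0 reversed. Of 828 list medians 813 moved by less than the spread between arrays. The medians of the astrocyte, apoptosis, erythrocyte and VTA-enriched lists changed sign under 11, 7, 7 and 4 settings, and further lists, all with medians within 0.08 of 0, under 1 to 3. Because values are centred, signal over background is unknown, and a scarce transcript cannot be told from an abundant one.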

Other observations

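Probe sets with no gene symbol, or with several, also held calls. When all 45037 probe sets were tested singly, 10092 had no single symbol, and of these 5 were higher and 2 were lower after 10 than after 2 days of MPTP at an adjusted p under 0.05.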
